A study of Mus musculus with 35 samples.

Results

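The Nelfa gene of the mouse and its surroundings carried 20 peaks, 13 of them with the summit inside the gene. The peaks come from a list called on chromatin precipitated through an induced, HA-tagged NELFA protein. The members were chosen by position alone: every peak with its summit in a 70 kb window on chromosome 5, which holds Nelfa (chr5:33897916-33936301, mm10) and reaches 17.9 kb below and 13.7 kb above it. They are 20 of the 59485 peaks of the list, which is the deposited record of where peaks were called along the genome. The locus was picked with its peaks already known, so their number and strength are given as descriptions and were not tested.

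The series asked how cells with high and low NELFA differ and whether NELFA regulates the 2-cell-like state, where genes of the 2-cell embryo are switched on in rare embryonic stem cells. Of its 35 libraries, 7 were chromatin immunoprecipitation (ChIP-seq) libraries. The others, 20 of RNA and 8 of open chromatin, were not analysed here. All 7 came from E14 mouse embryonic stem cells grown in serum, LIF and the inhibitor pair known as 2i, with doxycycline at 0.4 µg/ml for 16 h. These cells carried a doxycycline-inducible transgene that encodes NELFA with a Strep-HA tag, joined through P2A to EGFP, in addition to their own Nelfa gene. Antibodies to the HA tag gave 4 precipitated libraries, 3 with a first antibody and 1 with a second, and 3 libraries were input chromatin. The labels give 3 replicate numbers. The library of the second antibody shares its replicate number with a library of the first antibody and with an input. There was no ChIP library from cells without doxycycline. The sources used here do not give the transgene's site, its copy number or whether it holds introns. Reads from the transgene and from the native gene therefore cannot be told apart in this list. The ChIP data are represented by 1 list with no value per library, and how libraries were combined into it is not given. No value below therefore has a replicate error, and the read depth is unknown. The list holds no expression values, so cell identity could not be checked against markers.

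NELFA is the A subunit of the negative elongation factor, a complex of NELF proteins that works with DSIF to hold RNA polymerase II just downstream of transcription start sites. The kinase P-TEFb releases the paused polymerase, which then goes on into the gene. NELF is thus usually found near the starts of active genes.

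The start of Nelfa and the strongest peak of the locus are the places where the list and known sequence meet. In RefSeq (GRCm38.p6, the assembly that mm10 names), Nelfa lies on the minus strand with its start site at position 33936271, 30 bp inside the annotated higher-coordinate end. The window from 250 bases before to 50 bases after that site is printed 5′ to 3′, with capitals marking the 122 bases inside the peak that covers the start. The windows of Polr2a, the one other gene of the pausing list below with a start peak of similar fold, and of Nelfb, another NELF subunit gene with no peak, are shown beside it. Nelfcd and Nelfe, the genes of the other NELF subunits, are named only.
Nelfa, chr5:33936222-33936521, minus strand: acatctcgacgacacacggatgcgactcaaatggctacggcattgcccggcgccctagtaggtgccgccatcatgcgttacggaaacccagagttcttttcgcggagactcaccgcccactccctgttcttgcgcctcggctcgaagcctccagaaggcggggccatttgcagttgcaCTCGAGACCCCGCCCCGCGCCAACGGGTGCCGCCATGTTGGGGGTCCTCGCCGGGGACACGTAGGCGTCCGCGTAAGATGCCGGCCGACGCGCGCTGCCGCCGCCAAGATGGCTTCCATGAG
Polr2a, chr11:69758584-69758883, minus strand: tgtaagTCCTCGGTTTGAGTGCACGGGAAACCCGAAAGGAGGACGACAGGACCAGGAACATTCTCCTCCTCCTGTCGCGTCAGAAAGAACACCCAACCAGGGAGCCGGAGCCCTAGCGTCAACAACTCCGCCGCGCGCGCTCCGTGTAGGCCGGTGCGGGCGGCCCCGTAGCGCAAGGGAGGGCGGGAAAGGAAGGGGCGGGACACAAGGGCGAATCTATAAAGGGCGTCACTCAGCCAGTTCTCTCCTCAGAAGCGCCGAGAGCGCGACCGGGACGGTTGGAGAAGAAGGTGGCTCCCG
Nelfb, chr2:25211440-25211739, minus strand: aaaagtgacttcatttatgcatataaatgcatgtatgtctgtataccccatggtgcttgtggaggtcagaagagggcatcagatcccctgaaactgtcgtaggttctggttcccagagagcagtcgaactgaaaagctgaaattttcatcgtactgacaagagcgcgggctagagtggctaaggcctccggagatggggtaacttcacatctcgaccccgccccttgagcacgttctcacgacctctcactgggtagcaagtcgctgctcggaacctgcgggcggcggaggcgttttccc

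The Nelfa window held 65.3% G and C and 36 CpG pairs. Among 32851 promoter windows of this length, the medians were 52.7% and 7, and 6.23% had at least as many CpG pairs. Polr2a had 63.7% and 30, and Nelfb had 53% and 16. Short motifs were searched on both strands, with positions counted from the start site as 0 to the first printed base of the match. The GC box GGGCGG matched on the opposite strand at -138 and -63 in Nelfa, and 35.7% of all promoter windows hold it. The motif ATGGCGG, the core of the known binding sequence of the factor YY1 and chosen with this window in view, matched on the opposite strand at -186 and -43, and 4.05% of windows hold it. It matched in neither the Polr2a nor the Nelfb window. GGGCGG matched 3 times in the Polr2a window and 2 times in that of Nelfb. The TATA motif TATAAA had no match at Nelfa, 1 match at Polr2a at -33 and 1 at Nelfb at -229, against 13.6% of windows with it. The motifs CCAAT (37.4% of windows) and CACGTG (7.15%) matched in none of these windows. The Nelfa matches at -63 and -43 lie in the capitals, inside the peak.

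The strongest peak of the locus covers a microRNA. Mir7024 lies at chr5:33898910-33898971 on the minus strand, inside Nelfa and 994 bp from its 3′ end. Its hairpin and mature strands are given because the peak covers them whole. Capitals mark the seed, bases 2 to 8.
Mir7024 hairpin: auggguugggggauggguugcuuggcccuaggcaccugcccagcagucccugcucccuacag
mmu-miR-7024-5p: uUGGGGGAuggguugcuuggc
mmu-miR-7024-3p: cCAGCAGUcccugcucccuacag

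All 62 bp of the hairpin lay inside the peak, which starts 353 bp before it on the lower-coordinate side. The summit was 402 bp away from the hairpin, toward the start of Nelfa. Of 1005 annotated hairpins, 27 (2.69%) overlapped a peak of the list, and Mir7024 lay under the peak of the highest fold among them.

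Along Nelfa, in the direction of transcription, the peaks fell into 4 places: the start, a pair of narrow peaks about 15 kb into the gene, a dense stretch over the last part of the gene, and the continuation of that stretch beyond the 3′ end. Fold enrichment is the linear ratio that the authors' peak caller gave at each summit, and the list's median was 2.09. Folds at the locus ran from 1.91 to 17.2 with a median of 2.59. Of the 20 peaks, 3 had a fold of at least 5, against 3% of the whole list. A fold of at least 3 was given to 8, against 14.2% of the list. The other 12 were close to the list's ordinary peaks.

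**Figure D1:**
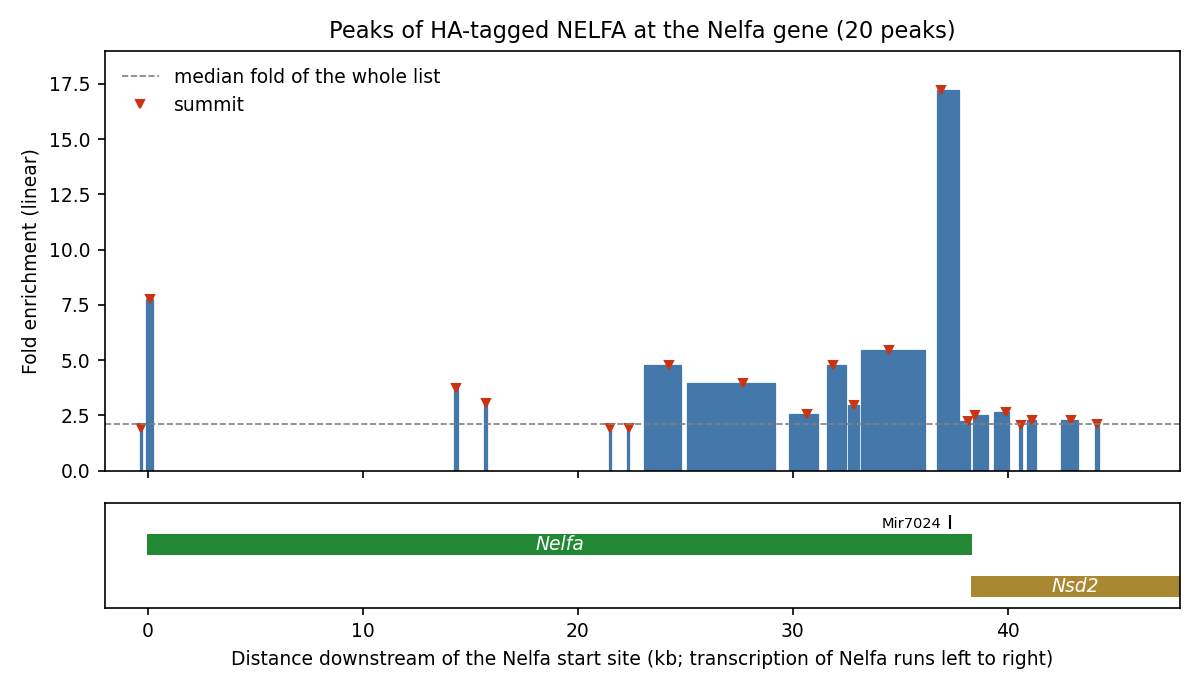
Fold enrichment (linear, vertical axis) of the 20 peaks against distance downstream of the Nelfa start site (kb, horizontal axis), with bars as wide as each peak plus a thin outline, triangles at the summits and the annotated Nelfa, Nsd2 and Mir7024 below. The tall bar near the 3′ end is the peak of fold 17.2 and the bar at the start the peak of fold 7.76, while the bars beyond the 3′ end stay at or under 2.63.

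At the start of Nelfa, 1 peak of fold 7.76 covered chr5:33936016-33936343 (328 bp). It reached from 72 bp upstream to 255 bp downstream of the start site, and its summit lay 117 bp downstream. Its −log10 q, the caller's significance after adjustment, was 88.2. A second, weak peak stood 319 bp upstream of the start site, with a fold of 1.91 over 114 bp. The start peak was thus 4.07 times as high as its neighbour upstream. In the list as a whole, 337 peaks (0.567%) had at least the fold of the start peak.

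Its position is a usual one in this list. The strand in the promoter table allowed summits to be placed upstream or downstream of 21262 start sites of protein-coding genes, from 17491 genes. A summit lay within 500 bp of 3402 of them (16%). Start sites close to one another can share a summit, so these are not all separate peaks. Leaving out Nelfa, the strongest such summit lay at a median of 72 bp downstream, with the middle of the distribution (lower to upper quartile) from -59 to 150 bp, and 69.2% lay downstream. The summit of Nelfa, at 117 bp, was inside that range. Its height was less usual: the median fold at the other start sites was 2.22, and 11 of the 3402 (0.323%), Nelfa included, had at least 7.76. The 93 other start sites with a fold of at least 5 had a median summit position of 58 bp downstream and quartiles of -91 and 149 bp.

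**Figure D2:**
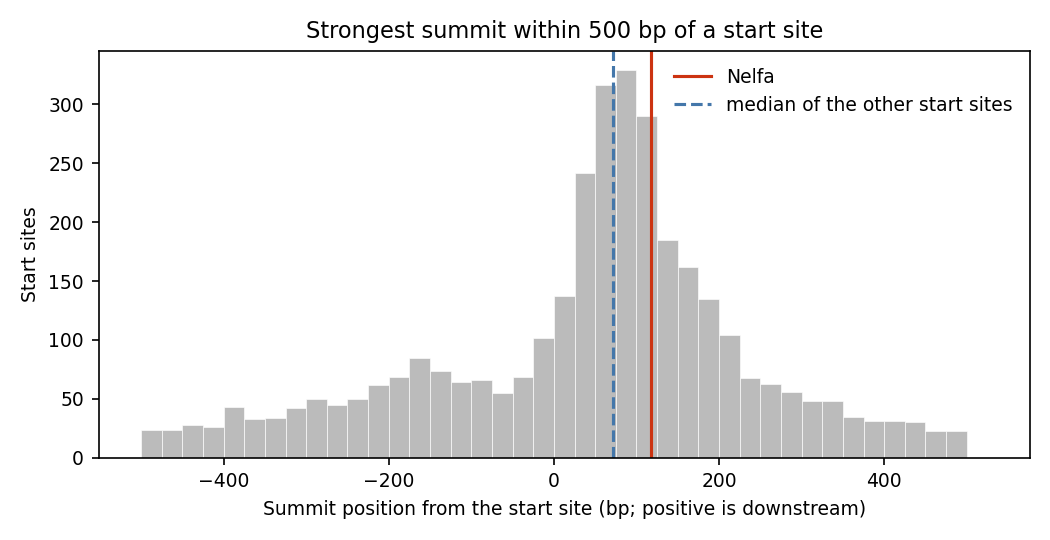
Number of protein-coding start sites (vertical axis) by the position of the strongest summit within 500 bp (horizontal axis, bp, positive downstream), with lines at Nelfa and at the median of the others. Nelfa, at 117 bp, lies on the downstream side of the main hump, close to the median of 72 bp.

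The highest peak of the locus was near the other end of the gene. It covered chr5:33898557-33899569 (1013 bp) with a fold of 17.2 and a −log10 q of 318, and its summit lay 1457 bp inside the 3′ end. It was 2.22 times as high as the start peak, the next strongest member. No peak on chromosome 5 was stronger, and 20 of the 59485 peaks in the list were.

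Those 20 stronger peaks were mostly of another kind. Their median width was 248 bp, and 1 was at least 1 kb wide, a peak of 1619 bp with its summit inside Smo, which encodes a receptor of hedgehog signalling. Within 35 kb, 11 of them had no other peak and 18 had at most 3. The peak at Nelfa had 17 others within that distance, more than any of the 20. Summits of 10 of the 20 were inside protein-coding genes, among them Camk1d (fold 21.2), Jarid2 (17.3) and Lama1 (17.2), which were named after their values were seen. Among 1834 peaks of like width (within 20%), the peak at Nelfa was the strongest, and their median fold was 3.36.

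**Figure D3:**
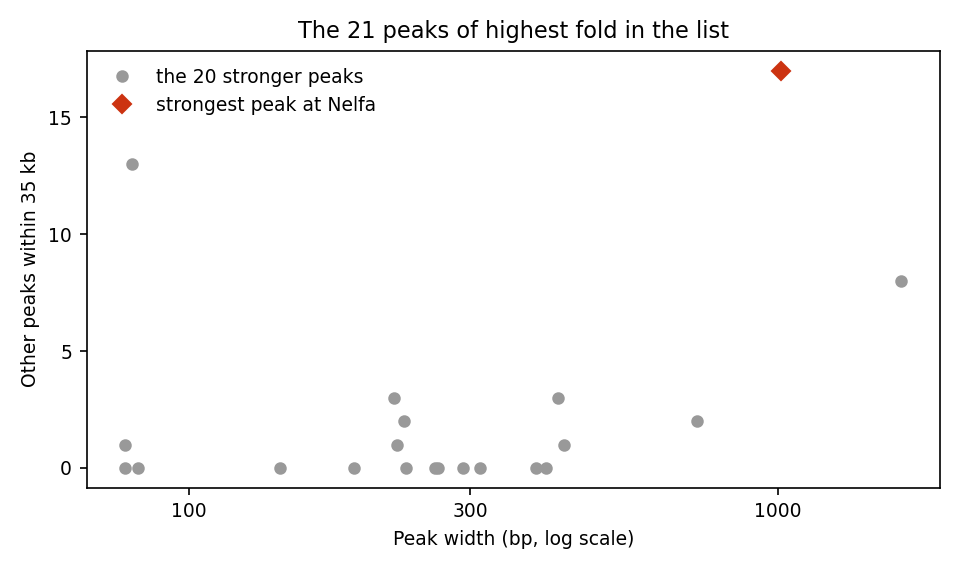
Other peaks within 35 kb (vertical axis) against width (bp, log horizontal axis) for the 21 peaks of highest fold in the list, 1 point a peak. The peak at Nelfa stands at 1013 bp and 17 neighbours, apart from the 20 stronger peaks, of which 18 have at most 3 neighbours.

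From this peak toward the start of the gene, wide peaks followed one another with short gaps. The next, chr5:33900132-33903072, was 2941 bp wide with a fold of 5.45, and 1384 peaks of the list (2.33%) were at least that strong. A peak of 473 bp and fold 2.95 and a peak of 866 bp and fold 4.77 came after it. These were followed by a low, broad peak of 1352 bp with a fold of 2.54. The widest member, chr5:33907091-33911177, measured 4087 bp, a width that 213 peaks (0.358%) of the list reached, and had a fold of 3.95. Next to it a peak of 1688 bp again had a fold of 4.77. The stretch ended with a pair of the narrowest members, 88 and 63 bp wide, both at a fold of 1.91. Between the 3′ end and the strongest peak stood 1 more, of 441 bp and fold 2.22.

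Wide peaks of the locus were not all tall for their width. Of the 20 members, 5 were at least 1 kb wide, against 4.33% of the list, and together they made up 66.3% of the bases covered at the locus. The widest, at 3.95, was below the median of 5.67 for the 159 peaks of like width (within 20%), and 86.8% of these had at least its fold. The peak of 1352 bp was lower still against its like, with 96.1% of 1194 peaks at or above it. The peak of 2941 bp was near the median of its like (4.91), and that of 1688 bp above (3.99). Fold and width ranked alike over the 20 members, with a Spearman rho of 0.69, and over the list with 0.84. Both are descriptions of peaks called on the same libraries.

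Counted by the edges of the intervals, 16 peaks stood less than 2 kb apart over 22.8 kb (chr5:33892044-33914797). This way of counting was added after the data were seen. Peaks covered 70.1% of that span. Its 15 gaps ran from 74 to 1197 bp with a median of 450 bp. Inside the gene, the part of the stretch from the 3′ end upward took up 44% of the length of Nelfa and held 95.6% of its covered bases, with 77.1% of this part covered by 10 peaks. Counted by summits less than 2 kb apart, the longest run had 8 peaks. It reached from chr5:33892044 to 33899569 and ended with the strongest peak, from which the next summit stood 2421 bp away.

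Beyond the 3′ end the stretch continued for 5.86 kb at a much lower level. The 6 peaks there had folds of 2.09, 2.27, 2.27, 2.04, 2.63 and 2.5, from the farthest to the nearest. They covered 50.1% of this part, and their widths ran from 148 to 769 bp. The nearest had its summit 130 bp beyond the 3′ end, and its interval ended just short of the annotated gene. No peak here reached a fold of 3, whereas 5 of the 10 peaks of the stretch inside Nelfa did.

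These 6 peaks lie inside the annotated interval of Nsd2, which encodes a histone H3 lysine methyltransferase. Its interval (chr5:33820676-33897966) and that of Nelfa share 51 bp. The other 71.4 kb of the 77.3 kb of Nsd2, up to the lowest of these peaks, had no summit at all. The 6 peaks thus all stood in the end of Nsd2 that adjoins Nelfa.

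Between the stretch and the start of Nelfa the gene was nearly bare. After a gap of 5.69 kb stood a pair of narrow peaks, chr5:33920489-33920639 (151 bp, fold 3.04) and chr5:33921841-33922008 (168 bp, fold 3.72). Their summits were 15.7 and 14.4 kb downstream of the start site. The remaining 14 kb up to the start peak had no peak. Both were tall for their width: of 7300 peaks within 20 bp of the first one's width, 1.33% had at least its fold, and of 6565 like the second, 0.64% did. The median folds at these widths were 2.04 and 2.09. No exon positions were used here, so which of the peaks of the locus lie in exons is not known.

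The folds of all 20 members were whole multiples, within 0.02 of a step, of one step of 0.0454, as were 98.1% of the folds in the list. The strongest stood at 379 steps. No fold on a step came with more than 1 value of q, so for these peaks q is no separate measure.

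The nearest peaks outside the window stood far away. The nearest peak on the lower side stood 132 kb from the lowest member, inside Letm1, which encodes a protein of the mitochondrial inner membrane, and had a fold of 2.45. The nearest on the higher side stood 99.7 kb from the highest member, inside Poln, which encodes a DNA polymerase, with a fold of 2.68. Just inside the window, the lowest and highest members had folds of 2.09 and 1.91. The 70 kb below the window and the 70 kb above it held 0 summits each. Of the other genes next to it, Gm52782, Gm1673, Fgfr3 (a fibroblast growth factor receptor) and Nat8l (an enzyme of N-acetylaspartate synthesis) had no peak inside them or within 1 kb of a boundary. Letm1 had 1 peak and Poln 7 inside them, none at a boundary.

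As many summits in so short a span were seen elsewhere, mostly in crowded regions. Of 38902 windows of 70 kb tiled over the genome, 391 (1.01%) held at least 20 summits, and 60.3% held none. Of those 391, 2 had no summit in either adjoining window, and the window of the locus itself was among both the 391 and the 2. With the tiles shifted by 35 kb, which splits the locus between tiles, it was 4 of 374. By the edges of intervals, a rule added after the data were seen, 321 of 29497 stretches (1.09%) had at least 16 peaks. The stretch at Nelfa had the highest fold of these 321, whose median of the highest fold was 4.95. Its covered share, 70.1%, was reached by 50 of the 321, itself included, and the median was 51.3%. Only 4 other peaks, all members of the locus, stood within 100 kb of it. As few stood around 17 of the 321, itself included, where the median was 94. A stretch of 24 peaks at chrX:169969872-170022614 came near it, with a highest fold of 15.8, 83% covered and 0 other peaks within 100 kb. Another, at chrY:90717508-90815275, reached a fold of 16.8 with 79.8% covered, and had 26 other peaks within 100 kb.

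The largest runs of summits in the list were longer, with lower highest folds. The 5 with the most peaks held 70 (chr10:22321993-22368528), 65 (chr4:145819483-145878810), 63 (chr5:14902729-14950176), 62 (chr14:5431401-5480678) and 58 (chr6:11850905-11891706). Their highest folds were 3.22, 7.26, 9.17, 5.54 and 2.72, and their median folds 2.16, 2.63, 3.45, 2.5 and 2.07. The run of 8 at Nelfa shared rank 832 by number of peaks. Its highest fold was 17.2 and its median fold 2.27, so its median was below that of 3 of these 5 runs.

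Among protein-coding genes of 30 to 50 kb, Nelfa had many peaks with few around it. It held 13 summits and was covered over 35.5% of its 38.4 kb. Of the 2561 genes of this length, 64.9% had no peak, and 35 (1.37%), Nelfa included, had at least 13. The covered share was at least as high in 19 of the others. Its highest fold, 17.2, was reached by none of the others.

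The genes of this length with the most peaks were Sp110 and Zfp991 with 47 each, Mroh2a with 44, Gm13212 with 40 and Gm51425 with 37. Sp110 encodes a nuclear body protein and Zfp991 a zinc-finger protein. The highest folds in these 5 were 13.1, 6.49, 2.95, 5.61 and 3.22 in the same order. They stood among 128, 131, 60, 137 and 119 further peaks within 100 kb on either side, where Nelfa had 7. For the 34 other genes with at least 13 peaks the median was 84.5.

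Of those 34, 5 had no more peaks around them than Nelfa, and they were picked out after their values were seen. They were Vps33a, a gene of vesicle sorting (15 peaks), Nxpe5 (14), Tubgcp2, a gene of the gamma-tubulin complex (13), the zinc-finger gene Zfp560 (20) and Ankrd22 (14). Their highest folds ran from 2.5 in Nxpe5 to 5.13 in Zfp560, and their covered shares from 7.4% to 18.4%. Nelfa, with 17.2 and 35.5%, was above all 5 on both measures.

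**Figure D4:**
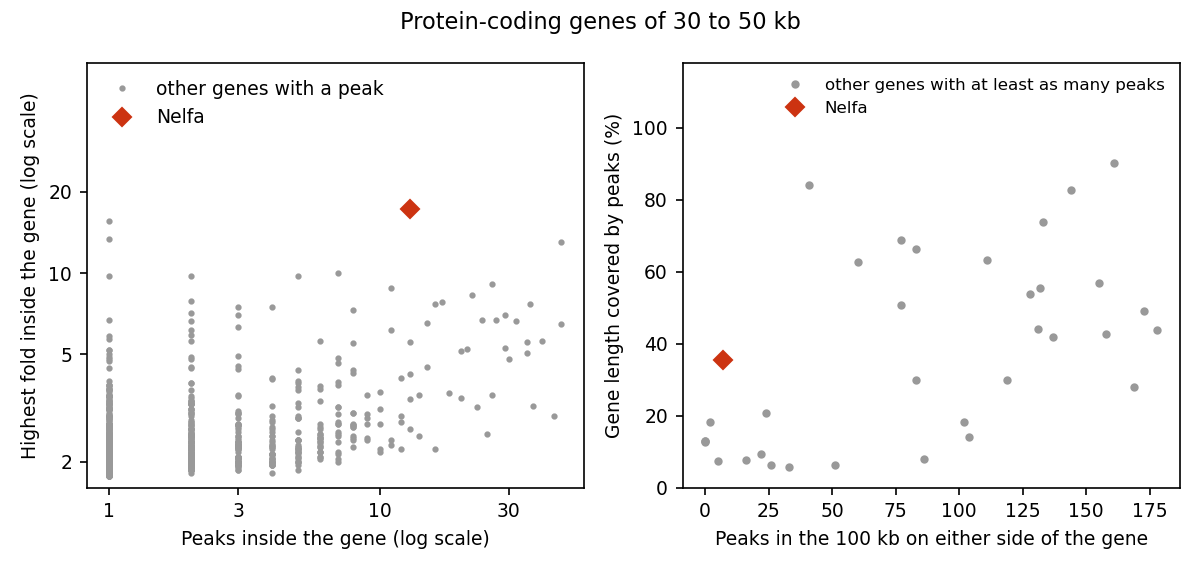
Protein-coding genes of 30 to 50 kb, 1 point a gene. Left: highest fold inside the gene against the number of peaks inside it, both on log axes, for genes with a peak, and right: share of the gene covered (%) against peaks within 100 kb on either side, for genes with at least 13 peaks. Nelfa has the highest fold on the left (17.2) and stands on the right at 7 surrounding peaks and 35.5%, above the 5 genes with as few or fewer.

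The other genes of pausing and elongation did not share this picture. The list of 28 genes covers the NELF subunits, DSIF, P-TEFb and its inhibitors, the polymerase and elongation factors. A boundary peak means a summit within 1 kb of either end of the gene. With Nelfa, 14 of the 28 had one, where 18.8% of all 21883 protein-coding genes did. Without Nelfa it was 13 of 27 (48.1%). With only peaks of a −log10 q of at least 4, it was 6 of the 28, Nelfa included, against 9.81%. The list was chosen with earlier results of these data known. The median of the highest boundary fold was 2.13 over the 13 such genes other than Nelfa and 2.22 over all 4120 protein-coding genes with a boundary peak.

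The other subunits of NELF had no peak. Nelfb, Nelfcd and Nelfe each had none inside the gene or within 1 kb of it. The nearest summits to their boundaries were 13118, 58738 and 81534 bp away. Of all protein-coding genes 18.8% had a boundary peak, so having none was the usual case. Nelfa had 4 peaks at its boundaries, 2 at each end. Of the DSIF genes, which encode the partner of NELF in pausing, Supt5 had 1 boundary peak of fold 2.18 and Supt4a none.

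All 3 genes of P-TEFb had a boundary peak, where 18.8% of all protein-coding genes did. The folds were 2.09 at the kinase gene Cdk9, 2.36 at the cyclin gene Ccnt1 and 2.59 at the cyclin gene Ccnt2. That at Cdk9 equals the median fold of the list and falls short of a −log10 q of 4. In the same order, the summits lay 227, 323 and 9 bp upstream of the start sites. Among the genes that keep P-TEFb inactive, Hexim1 had 3.31 and Mepce 2.68, and Larp7 had none. Polr2a, which encodes the largest subunit of RNA polymerase II, was the one other gene of the list near the level of the Nelfa start, at 7.99 with its summit 39 bp downstream of the start site. Over all 4120 genes with a boundary peak, 23 (0.558%) had a fold at least as high as the 7.76 at the start of Nelfa.

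Among the genes of the super elongation complex, which holds P-TEFb, Aff4 (2.04) and Ell (2.04) had a boundary peak and Aff1, Ell2, Mllt1 and Mllt3 had none. Of the 6 genes grouped with the PAF complex, which travels with elongating polymerase, Paf1 (2.13) and Ctr9 (1.95) had one and Cdc73, Leo1, Rtf1 and Supt6 had none. Tcea1, which encodes an elongation factor, had one of 1.82, and Polr2m had none. Inside the genes, Cdc73 had a peak of 2.68, Rtf1 one of 3.36 and Mllt3 a highest of 1.95. Ell, on chromosome 8, had 15 peaks inside it, more than Nelfa, but they covered 3.3% of the gene and reached 2.18. The covered share was 12.2% at most in the 27 other genes, at Mepce.

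**Figure D5:**
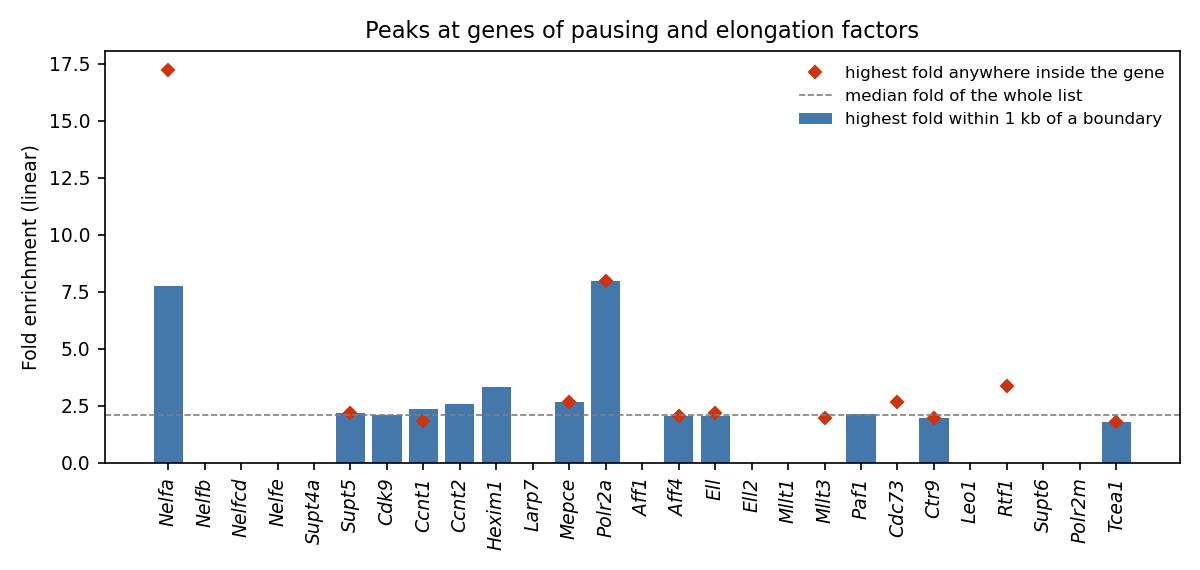
Highest fold enrichment (linear) within 1 kb of a boundary (bars) and anywhere inside the gene (diamonds) for 27 genes of the pausing and elongation list, with a dashed line at the list's median of 2.09. Nelfa has the highest diamond (17.2), Nelfa and Polr2a the highest bars (7.76 and 7.99), and Nelfb, Nelfcd and Nelfe have neither.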

How the data were processed

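The 1 deposited file is a narrowPeak list without a header. The submitters' processing notes name MACS2, for which no version is listed, SAMtools 1.4, the aligner Bowtie2 2.2.9, Trim Galore 0.4.2 and the build mm10. No source used here gives the settings of the peak call, the way libraries were combined or the treatment of reads with several alignments. Every deposited peak carries a fold enrichment, a linear ratio from the authors' peak caller, and the −log10 of a q-value. Summits were the interval's start plus the deposited offset, and coordinates are printed counting from 1.

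Genes, start sites and microRNAs came from RefSeq tables of GRCm38.p6, with 21883 protein-coding genes on chromosomes 1 to 19, X and Y. A gene's boundary peak had its summit within 1 kb of either end. Runs, windows and genes of like length were counted over the whole list with no significance test. The members and gene lists were chosen with earlier results of these data known. Named genes were Nelfa, genes overlapping the window with up to 3 protein-coding neighbours on each side, the pausing list, the 5 genes of 30 to 50 kb with the most peaks and the 5 largest runs. Genes under the strongest peaks of the list and genes with few peaks around them were named outside this rule, after their values were seen. Of the 28 genes of the pausing list, 1 enters the counts and is not reported here by itself. Alternatives were other windows, gaps, gene lengths and stricter peaks. Counts of summits, covered bases, boundary peaks, runs of summits and tiled windows were tested on simulated data with known answers. The simulated peaks were narrower than the wide peaks of this locus. Stretches by interval edges, start-site positions, comparisons at like width and motif matches were not tested in this way. Figures were drawn with matplotlib 3.10.9, and values computed in Python 3.11.15 with pandas 2.3.3, scipy 1.17.1 and numpy 2.4.6.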

Additional observations from a re-analysis of the deposited data

How the results depend on the processing

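Of 22 alternatives to the 7 values examined, 14 kept the value within 1.5 times (counts), within its 95% Wilson interval (shares) or exactly (the highest fold). Some of these 14 could not have moved. The highest fold was set against the strongest peak by q, which is no separate measure here. The window widened by 20 kb reached only into flanks with 0 summits. The number of peaks at the locus stayed between 15 and 20 and that in Nelfa between 11 and 13 under the overlap of intervals, peaks at or above the median fold, a −log10 q of at least 4 and, for the locus, a window widened by 20 kb on each side. The longest run, 8 peaks with summits under 2 kb apart, was 3 at 1 kb and 16 at 5 kb. It was also 16 by interval edges, an alternative chosen after seeing the data. The share of 70 kb windows with at least as many summits as the locus, 1.01% in the main setting, was 0.774% when weaker peaks than the median were left out, 0.691% at a −log10 q of at least 4 and 0.896% without chromosomes 6 and 8. The share of genes of like length with at least as many peaks as Nelfa fell from 1.37% to 0.976% at a −log10 q of at least 4. At that limit 6 of the 28 pausing genes, Nelfa included, had a boundary peak in place of 14, where 9.81% of all protein-coding genes did. Windows of 500 bp and 2 kb left that number at 14. No paired analysis was possible because the list holds no value per library, and for the same reason no replicate could be left out. The read depth behind each fold is unknown.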
